A study of Homo sapiens with 24 samples.

Results

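The interferon-stimulated genes described here are 47 genes of 57820 counted, chosen by name from the established type I and type III interferon response. All 47 were listed for every library and passed the filter on low counts, which asked for a mean of at least 1 read per library. XAF1 had 0 reads in SAS GSK-J1 replicate 2, and CXCL10 and CXCL11 had 0 in SAS GSK-J1 replicate 3. They span the transcription factors of the pathway, RNA sensors and RNA-degrading enzymes, membrane proteins that block virus entry or release, the ISG15 conjugation system, and chemokines.

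Cells make interferon beta and the interferon lambdas after foreign or misplaced nucleic acid is sensed. Secreted interferon binds its receptor, the receptor's Janus kinases phosphorylate STAT proteins, and the complex ISGF3, which holds STAT2 and IRF9, is formed. ISGF3 binds a short DNA element in the promoters of interferon-stimulated genes and turns them on together. In epithelial tumours, part of this gene set is also described after radiation damage.

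RNA was sequenced from Cal33 and SAS, 2 established human lines of tongue carcinoma (HNSCC, squamous carcinoma of the head and neck) with the genotype label WT. Each line had 4 groups of 3 libraries: 4.5 µM GSK-J1 plus a single 4 Gy x-ray irradiation, 4 Gy alone, GSK-J1 alone, and sham. GSK-J1 is a small-molecule inhibitor of the histone demethylases UTX and JMJD3, and RNA was taken 24 h into treatment. The comparisons ask what irradiation and the inhibitor, alone and together, did to these genes within each line. Each line is a single model, and nothing in the labels says that the 3 libraries of a group came from separate cultures, so the p-values rest on library-to-library spread alone, which may be technical.

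The libraries held between 54200036 and 96848227 reads counted to genes. Levels are given as CPM, the counts relative to the library size after scaling by the trimmed mean of M values (TMM). A member is called when edgeR's quasi-likelihood test, fitted to the 12 libraries of a line, gave an adjusted p under 0.05 (Benjamini-Hochberg over all genes tested). Squamous markers were present in every library at a summed 5727 to 9033 CPM in Cal33 and 2250 to 3543 CPM in SAS. The leukocyte markers summed to 7.32 to 10.2 CPM in Cal33 and 5.51 to 24.3 CPM in SAS. In SAS, 2 libraries held a trace of transcripts that only Cal33 makes: 1.48% of the Cal33 level in GSK-J1 replicate 1 and 0.751% in GSK-J1 plus 4 Gy replicate 1. In no other SAS library did this exceed 0.0102%. Counts of called members in SAS comparisons that use them are therefore also given without them.

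The core of the interferon-stimulated response element, the DNA element that ISGF3 binds, can be written as GAAA and GAAA with 2 bases of any kind between. Promoters are shown for 6 members that rose after irradiation in Cal33 and were chosen for carrying this core, and for IRF1, which was not called there. The choice does not set called members with the core against uncalled ones without it: CXCL11, with the largest estimate, had 0 matches to the core and 2 to TTCNNNGAA, and DDX60, IFI27 and IFITM1, which were not called, held the core. They are RefSeq sequences of GRCh38.p14, each the 250 bases before the gene's start, read 5′ to 3′ on the gene's strand. The windows lie at chr4:76023498-76023747 on the minus strand (CXCL10), chr1:27672193-27672442 minus (IFI6), chr1:78620198-78620447 plus (IFI44L), chr21:41431800-41432049 plus (MX1), chr15:88638766-88639015 plus (ISG20), chr1:1013247-1013496 plus (ISG15) and chr5:132490774-132491023 minus (IRF1). Capitals mark the response element core on either strand (in MX1 the match is on the opposite strand, and in ISG15 2 matches overlap). MX1 has 3 starts and is shown at the start with a match in the 250 bases before it. Its window from 41420308 held the core only after the start, and its window from 41425989 held none. In IRF1 capitals mark TTCNNNGAA, the core of the gamma-activated site, an element of the interferon gamma response.
CXCL10: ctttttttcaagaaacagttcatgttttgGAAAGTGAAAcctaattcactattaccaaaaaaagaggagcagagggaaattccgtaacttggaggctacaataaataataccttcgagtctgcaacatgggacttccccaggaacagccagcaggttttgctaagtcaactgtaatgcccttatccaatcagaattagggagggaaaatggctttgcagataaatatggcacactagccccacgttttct
IFI6: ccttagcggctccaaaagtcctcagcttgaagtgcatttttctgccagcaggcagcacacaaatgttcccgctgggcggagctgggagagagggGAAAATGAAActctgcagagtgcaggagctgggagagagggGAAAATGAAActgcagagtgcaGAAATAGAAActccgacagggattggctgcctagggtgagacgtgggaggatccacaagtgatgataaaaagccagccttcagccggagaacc
IFI44L: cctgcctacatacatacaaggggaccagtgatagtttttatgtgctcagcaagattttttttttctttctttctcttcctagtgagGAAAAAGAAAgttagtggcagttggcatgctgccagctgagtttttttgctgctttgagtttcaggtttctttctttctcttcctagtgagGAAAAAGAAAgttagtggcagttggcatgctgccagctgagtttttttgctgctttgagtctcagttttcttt
MX1: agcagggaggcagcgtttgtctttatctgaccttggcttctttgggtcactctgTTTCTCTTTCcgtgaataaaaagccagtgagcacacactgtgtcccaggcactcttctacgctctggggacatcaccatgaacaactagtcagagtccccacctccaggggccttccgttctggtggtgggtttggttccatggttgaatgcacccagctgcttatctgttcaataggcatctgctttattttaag
ISG20: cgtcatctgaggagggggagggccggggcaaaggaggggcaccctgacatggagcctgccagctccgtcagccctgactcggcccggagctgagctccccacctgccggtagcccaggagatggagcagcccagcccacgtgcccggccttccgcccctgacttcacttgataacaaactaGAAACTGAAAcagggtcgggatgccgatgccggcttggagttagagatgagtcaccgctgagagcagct
ISG15: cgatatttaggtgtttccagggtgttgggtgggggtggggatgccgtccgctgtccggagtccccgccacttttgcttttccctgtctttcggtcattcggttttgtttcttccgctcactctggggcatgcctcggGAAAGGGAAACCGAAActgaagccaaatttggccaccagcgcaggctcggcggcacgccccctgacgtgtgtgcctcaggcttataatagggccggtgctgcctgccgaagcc
IRF1: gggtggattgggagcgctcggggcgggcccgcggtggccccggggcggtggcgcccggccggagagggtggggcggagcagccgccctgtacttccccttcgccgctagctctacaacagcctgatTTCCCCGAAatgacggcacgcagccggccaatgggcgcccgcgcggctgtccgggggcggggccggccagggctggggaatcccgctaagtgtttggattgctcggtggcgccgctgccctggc

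With 250 bases before and 50 bases after each start, searched on both strands, the response element core stood in 3.57% of 35116 promoter windows and in 62.3% of the 53 windows of the members (33 windows). RefSeq rows matched 40 of the 47 members, some with more than 1 start. TTCNNNGAA stood in 7.66% of all windows and 30.2% of the member windows. Of the members called higher after irradiation in Cal33, 25 of 35 with a window held the core, and of those not called, 3 of 5 did. No test was run on these counts. A match is a description of letters, not a site shown to be bound.

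In Cal33 these genes took up a mean 1.596% of all counts after 4 Gy, against 0.582% in sham. They made up 1.44%, 1.25% and 2.10% of all counts in the GSK-J1 plus 4 Gy libraries, 1.54%, 1.28% and 1.96% in the 4 Gy libraries, 0.495%, 0.631% and 0.517% in the GSK-J1 libraries and 0.692%, 0.517% and 0.537% in the sham libraries. Every irradiated Cal33 library was above every unirradiated one. In SAS the shares were 0.212%, 0.224% and 0.191% with both agents, 0.229%, 0.255% and 0.216% with 4 Gy, 0.25%, 0.241% and 0.162% with GSK-J1, and 0.304%, 0.282% and 0.188% in sham libraries. The SAS groups overlapped, and replicate 3 was the lowest library in each. Within each SAS replicate number (the SAS numbers pair) the share was lower in all 3 GSK-J1 libraries than in sham and in all 3 libraries with both agents than with 4 Gy. No test was run on these pairs. The share weighs members by their counts, so it follows the most abundant ones. In SAS sham IFITM3 had 338 to 753 CPM and LGALS3BP 301 to 534 CPM, beside a mean sum of 2789.9 CPM over all members.

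**Figure D1:**
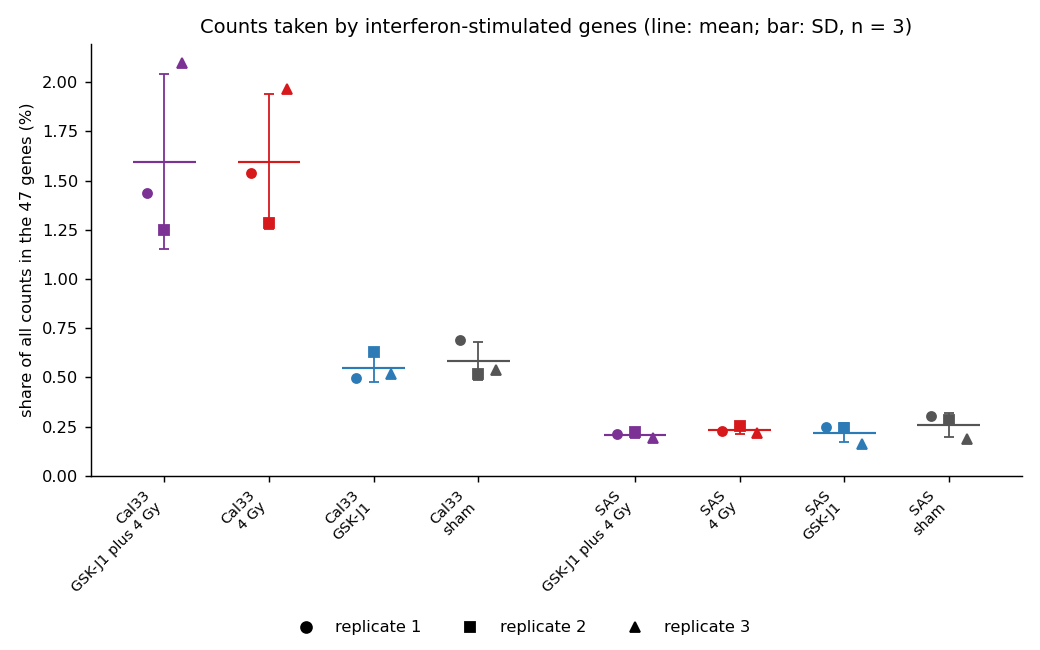
Share of each library's counts that fell on the 47 interferon-stimulated genes, in percent, by treatment, with Cal33 left and SAS right; points are libraries, the line is the mean and the bar the SD (n = 3). Irradiated Cal33 libraries lie at 1.25% to 2.10% and unirradiated ones at 0.495% to 0.692%, while all SAS libraries lie at or below 0.304%.

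Per kilobase of the gene's annotated exonic length, the highest member in irradiated Cal33 was ISG15, a ubiquitin-like protein that is attached to other proteins, at a mean of 1263 CPM per kb. IFITM3, a membrane protein that blocks virus entry, followed at 913 CPM per kb, then IFI6 at 649 and BST2 (tetherin, which holds virus particles at the cell surface) at 513 CPM per kb. In sham Cal33, IFITM3 led at 466 CPM per kb, with BST2 at 274 and ISG15 at 271. In SAS, IFITM3 led both in 4 Gy libraries (319 CPM per kb) and in sham libraries (426 CPM per kb), followed by LGALS3BP at 103 and 123 CPM per kb. The exonic length is that of the gene's annotation, not of the transcript the cells made, so the order of members depends on it. The IFITM genes have close paralogues, so the split of reads between IFITM1 and IFITM3 is uncertain.

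Irradiation of Cal33 alone was followed by higher levels of nearly the whole set. Of the 47 members, 42 rose after 4 Gy relative to sham and 0 fell, whereas 6.27% of all genes were called, 3.47% higher and 2.81% lower. The median log2 fold change of the members was 1.56, against 0.01 over all genes, with a range from 0.55 (LGALS3BP) to 3.83 (CXCL11). All 47 estimates were positive with an unadjusted p under 0.05, and in 45 members every 4 Gy library was above every sham library, which held for 13% of all genes. The exceptions were IRF1 and DDX60. More cells of one kind and more RNA per cell cannot be told apart in bulk libraries.

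The chemokines CXCL10 and CXCL11 had the largest estimates. CXCL10, which draws T cells through the receptor CXCR3, had 15.5, 5.47 and 13.1 CPM after 4 Gy, against 0.795, 0.795 and 1.06 CPM in sham. Every irradiated library was at least 5 times any sham library. Its fold change was 12.9 (log2 3.69, SE 0.41, adjusted p = 0.000987). CXCL11, a ligand of the same receptor, had 10.9, 3.01 and 7.31 CPM against 0.411, 0.419 and 0.654 CPM, a 14.3-fold rise (log2 3.83, SE 0.51, adjusted p = 0.00261). CCL5, which attracts T cells and monocytes, had 227, 63.5 and 202 CPM against 35.9, 32.6 and 35.4 CPM. Its sham libraries lay close together while its 4 Gy replicate 2 was far below the other irradiated libraries, and the fold change was 4.79 (log2 2.26, SE 0.45, adjusted p = 0.0138).

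Proteins that bind or degrade viral RNA rose together. All 4 IFIT genes, whose products bind foreign RNA ends, were called higher (median log2 fold change 2.00, range 0.99 to 2.22), as were all 4 OAS genes, which make the activator of RNase L (median 1.85, range 1.58 to 2.03). IFIT1 had 268, 291 and 636 CPM after 4 Gy, against 101, 119 and 67.5 CPM in sham. IFIT2 had 647, 448 and 1271 CPM against 141, 233 and 136 CPM. For both genes 4 Gy replicate 3 was the highest, and the groups did not overlap. The log2 fold changes were 2.07 for IFIT1 (SE 0.42, adjusted p = 0.0142) and 2.22 for IFIT2 (SE 0.44, adjusted p = 0.014). OAS1 had 276, 199 and 347 CPM against 105, 54.1 and 45.5 CPM, a 4.08-fold rise (log2 2.03, SE 0.36, adjusted p = 0.00864).

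The group of MX1, MX2, RSAD2, ISG20 and CMPK2 was called in full (5 of 5, median 2.26). MX1, a dynamin-like GTPase that traps viral nucleocapsids, had 585, 474 and 987 CPM after 4 Gy, against 241, 103 and 72.8 CPM in sham. MX2, its paralogue and neighbour on chromosome 21, had 219, 96.3 and 247 CPM against 52.8, 13.4 and 13.9 CPM. In both genes sham replicate 1 stood above the other sham libraries, yet below all irradiated ones. The log2 fold changes were 2.32 for MX1 (SE 0.51, adjusted p = 0.0219) and 2.83 for MX2 (SE 0.64, adjusted p = 0.025). ISG20, an exonuclease that degrades RNA, had 86.5, 29.8 and 84.7 CPM against 16.4, 12.1 and 13.9 CPM (log2 2.26, SE 0.41, adjusted p = 0.00937).

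The ISG15 conjugation system was also called in full (5 of 5, median 1.52, range 0.87 to 2.24). ISG15 itself had 1010.5, 500.5 and 1182 CPM after 4 Gy, against 201, 190.3 and 186 CPM in sham, a 4.71-fold rise (log2 2.24, SE 0.37, adjusted p = 0.00645). Its sham libraries were nearly level, and the lowest irradiated library was above all of them. Among the IFI, IFITM and tetherin proteins 6 of 8 were called (median 1.32). IFI6, a mitochondrial protein that opposes cell death, had 420.3, 570.5 and 693 CPM against 208, 50.3 and 33.6 CPM (log2 2.55, SE 0.69, adjusted p = 0.0465). IFI44L had 154, 145 and 193 CPM against 53.5, 18.5 and 18.0 CPM (log2 2.47, SE 0.48, adjusted p = 0.0125). IFI27 did not pass the test at a log2 fold change of 2.58 (SE 0.89, adjusted p = 0.106), and its sham values of 228, 33.8 and 17.9 CPM spread more than those of any other member. The other gene of the IFI set without a call was IFITM1 (log2 1.27, adjusted p = 0.0773).

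Of the 4 transcription factors among the members 2 were called. IRF7, which drives further interferon transcription, and IRF9, the DNA-binding subunit of ISGF3, were called, and STAT2 and IRF1 were not. IRF9 had 20.2, 12.1 and 14.6 CPM after 4 Gy, against 9.36, 4.93 and 5.41 CPM in sham (2.40-fold, log2 1.26, SE 0.32, adjusted p = 0.0374). STAT2 had 219, 190.4 and 249 CPM against 179, 109 and 93.3 CPM, without overlap but with a log2 fold change of only 0.80 (SE 0.25, adjusted p = 0.0738). IRF1 had 262, 140.1 and 169 CPM against 117, 95.6 and 157 CPM, and its groups overlapped (log2 0.64, SE 0.28, adjusted p = 0.198). The remaining sets were called in 3 of 4 (DDX60 and SAMD9 genes), 4 of 4 (PARP genes and DTX3L) and 6 of 6 (other members). DDX60, an RNA helicase that aids sensing of viral RNA, missed the threshold (log2 0.91, SE 0.27, adjusted p = 0.0631).

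**Figure D2:**
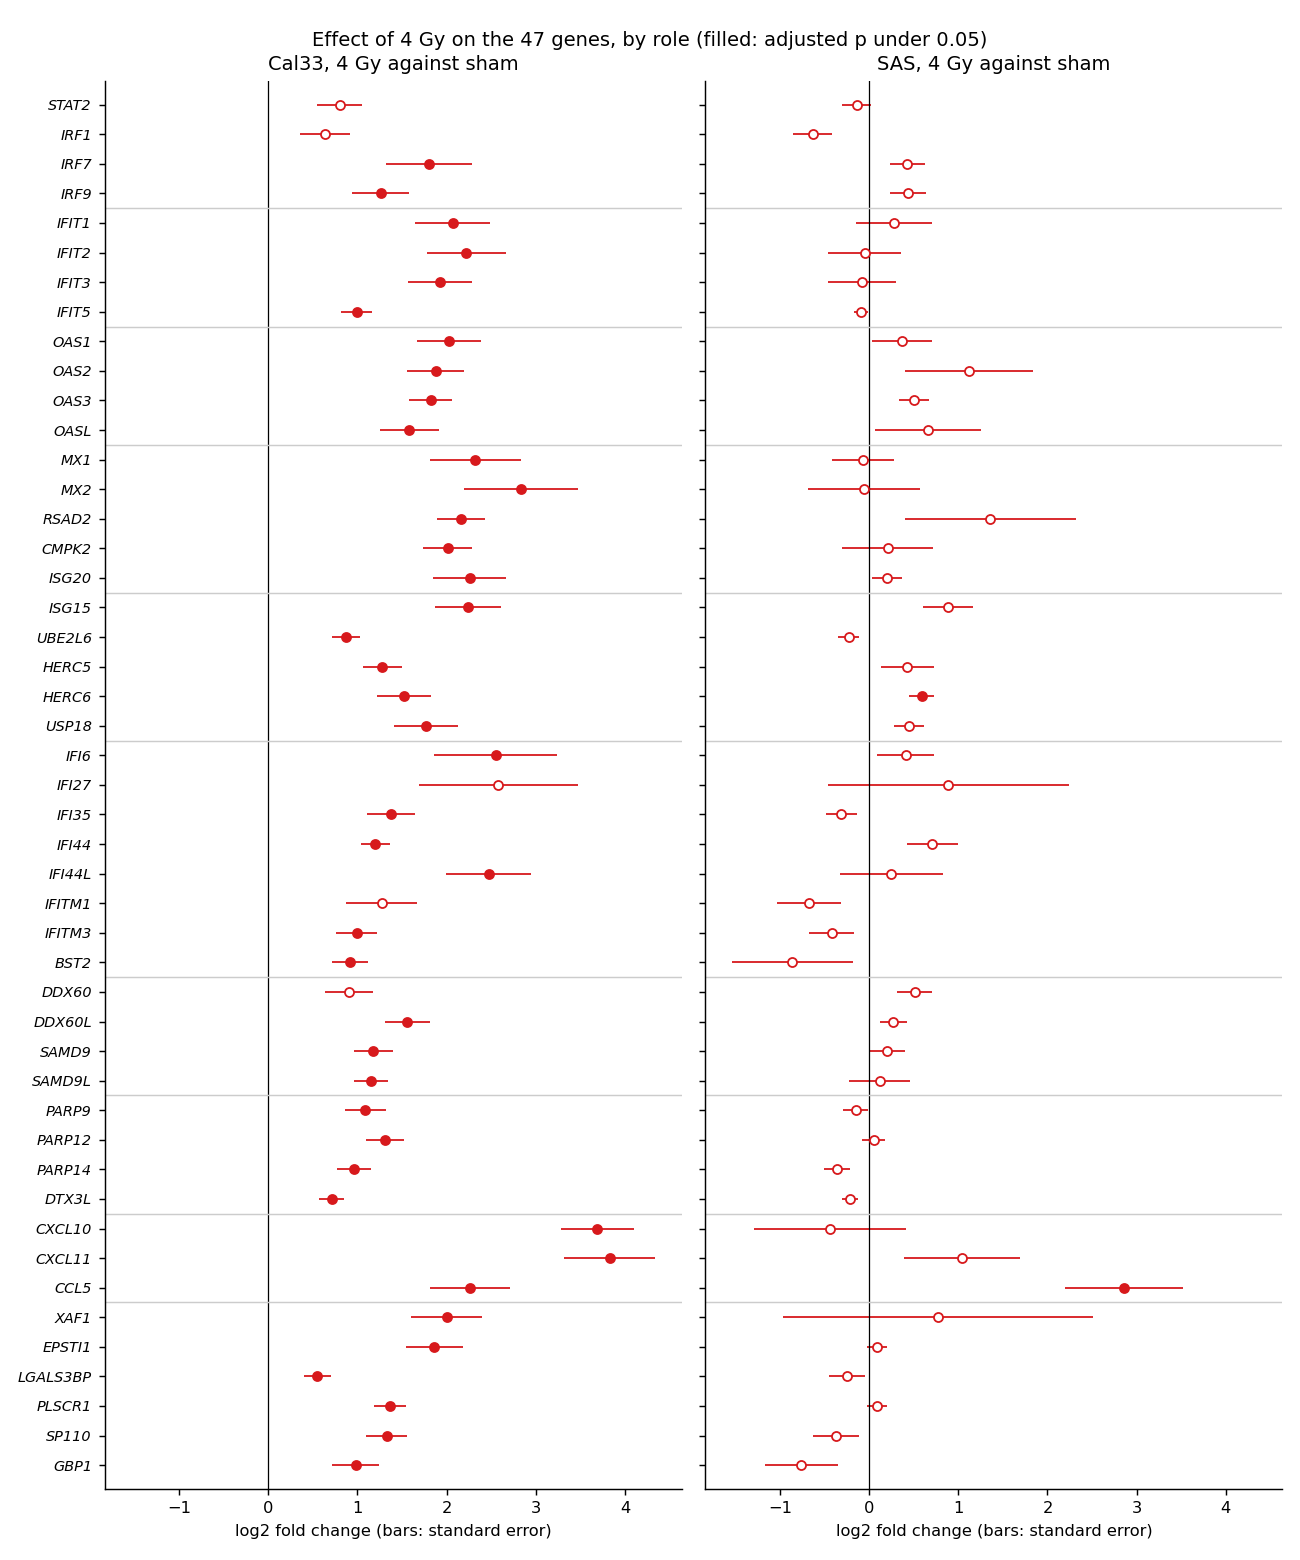
Log2 fold change of 4 Gy against sham for all 47 members, ordered by role, with Cal33 left and SAS right; bars are SE and filled points have an adjusted p under 0.05 (edgeR, n = 3 each). All Cal33 points lie right of 0, from 0.55 to 3.83, while SAS points lie on both sides of it, from -0.86 to 2.86.

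Within the pathway around the members, 4 ligand genes rose and the rest was not called. Of 22 further pathway genes tested in Cal33, 4 were called higher and 0 lower, with 0 of 6 receptor genes, 0 of 3 kinases and 0 of 5 inhibitors. IFNB1, which encodes interferon beta, had 0.689, 0.199 and 0.702 CPM after 4 Gy, against 0.0397, 0.0144 and 0 CPM in sham (log2 4.88, SE 0.88, adjusted p = 0.00927). IFNL1, an interferon lambda gene, had 8.61, 1.83 and 4.17 CPM against 0.755, 0.390 and 0.776 CPM (log2 2.93, SE 0.59, adjusted p = 0.0141). Both were low in absolute level, and 4 Gy replicate 2 was the lowest irradiated library in each, as it was for 37 of the 47 members. IFNL2 and IFNL3 also rose (log2 3.55 and 3.09, adjusted p = 0.0215 and 0.0351), but they are near-identical copies and their reads may be split wrongly.

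**Figure D3:**
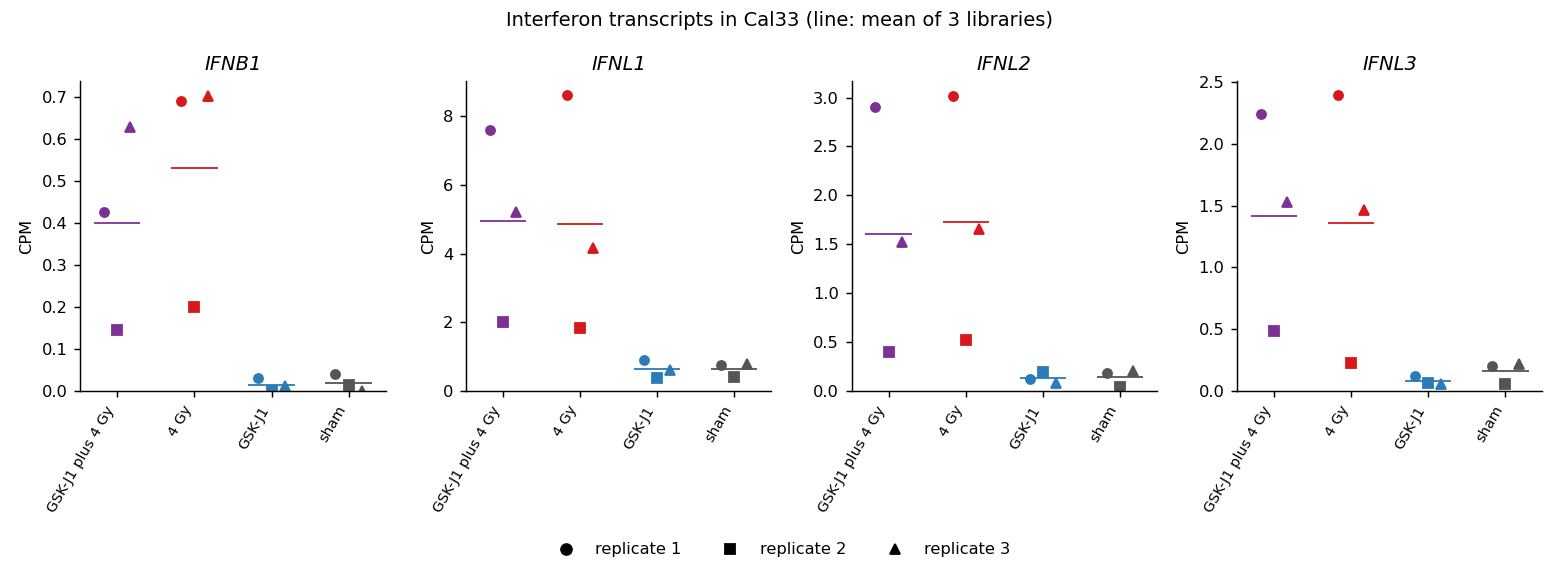
CPM of the interferon genes IFNB1, IFNL1, IFNL2 and IFNL3 in the Cal33 libraries by treatment; points are libraries and the line is the mean (n = 3). IFNL1 lies at 1.83 to 8.61 CPM in irradiated libraries and at 0.365 to 0.893 CPM in unirradiated ones.

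The count of calls in Cal33 depended on single libraries. It was 22 without 4 Gy replicate 3 and 27 without sham replicate 3. In the same comparison 1 of 6 squamous markers was called, KRT6A (log2 1.06, adjusted p = 0.0236), while KRT5 (log2 -0.12) and TP63 (log2 -0.16) were not. Of 4 fibroblast markers PDGFRB was called lower (log2 -1.44, adjusted p = 0.0473) on 5, 3 and 7 reads after 4 Gy, against 14, 13 and 14 reads in sham, and the list summed to 23.7 to 34.5 CPM after 4 Gy and 23.0 to 43.5 CPM in sham. Of 6 leukocyte markers 0 were called in edgeR, and ITGAM did not overlap between groups (log2 1.14, adjusted p = 0.0612). That list summed to 8.30 to 9.33 CPM after 4 Gy and to 7.63 to 10.2 CPM in sham. The part of these markers in the result was not tested.

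Irradiation was also compared in the presence of GSK-J1. These libraries are not those of the comparison above, but they are not independent of them: same-numbered libraries with both agents and with 4 Gy deviated together from their group means (r = 0.91, 0.796 and 0.741 across genes). Of the 47 members, 42 rose in GSK-J1 plus 4 Gy relative to GSK-J1 alone and 0 fell, with 5.11% of all genes called and 3.04% called higher. The median log2 fold change was 1.63, from 0.63 (LGALS3BP) to 3.91 (CXCL10), and 46 members did not overlap between groups, against 12.5% of all genes. The exception was IRF1. There were 41 members called both with and without the inhibitor, and for all 47 the log2 fold changes with and without it lay within 0.5 of each other, with differences from -0.11 (CXCL11) to 0.43 (IFI6).

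CXCL10 had 13.2, 6.28 and 13.0 CPM with both agents, against 0.753, 0.932 and 0.506 CPM with GSK-J1 alone (15.1-fold, log2 3.91, SE 0.41, adjusted p = 0.000882). CXCL11 rose 13.1-fold (log2 3.72, SE 0.51, adjusted p = 0.00328), and its values were 8.51, 2.60 and 7.17 CPM against 0.562, 0.405 and 0.437 CPM. For both chemokines the replicate 2 library was again the lowest of the irradiated ones. MX2 had 202, 87.7 and 277 CPM against 12.4, 43.4 and 15.8 CPM (log2 3.01, SE 0.65, adjusted p = 0.0215). ISG15 had 868, 466 and 1548 CPM against 167, 163 and 189.8 CPM (5.62-fold, log2 2.49, SE 0.37, adjusted p = 0.00457). The irradiated libraries of both genes were all above the unirradiated ones. IFI6, IFI44L, MX1, IFIT2, CCL5 and ISG20 rose with log2 fold changes from 2.34 to 2.98.

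STAT2 (log2 0.82, adjusted p = 0.0769), IRF1 (log2 0.75, adjusted p = 0.141), IRF9 (log2 1.16, adjusted p = 0.0568), IFI27 (log2 2.88, adjusted p = 0.0852) and IFITM1 (log2 1.39, adjusted p = 0.0651) were not called. These 2 groups share replicate numbers that pair. With the replicate number as a block 45 members were called, beside 8.67% of all genes (5.04% higher). Among these members were IRF1 (log2 0.73, adjusted p = 0.0261), IRF9 (log2 1.05, adjusted p = 0.0338) and IFITM1 (log2 1.30, adjusted p = 0.0278). Without GSK-J1 plus 4 Gy replicate 3 the count was 26, and without GSK-J1 replicate 3 it was 27. The pathway genes that rose were the 4 named above: IFNB1 (log2 4.62, adjusted p = 0.0134), IFNL1 (log2 3.00, adjusted p = 0.0143), IFNL2 (log2 3.66, adjusted p = 0.0215) and IFNL3 (log2 4.10, adjusted p = 0.0163).

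**Figure D4:**
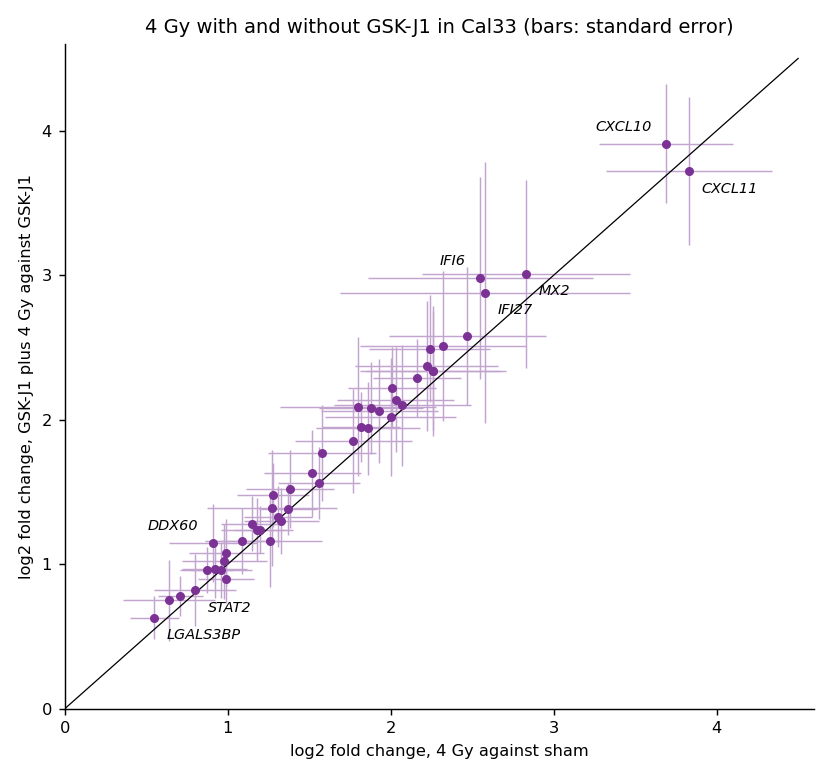
Log2 fold change of irradiation in Cal33 for the 47 members, without GSK-J1 (4 Gy against sham, horizontal) and with it (GSK-J1 plus 4 Gy against GSK-J1, vertical); bars are SE and the diagonal marks equal change. All members lie within 0.5 of the diagonal.

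GSK-J1 itself was not followed by a called change of any member in Cal33. Relative to sham, GSK-J1 gave 0 calls in edgeR, 0 members with an unadjusted p under 0.05 and 0 calls in DESeq2, and 0% of all genes were called. The median log2 fold change was -0.14, with 40 of 47 estimates negative and a range from -0.29 (CXCL10) to 0.08 (IFIT5). The smallest p belonged to SAMD9L, an antiviral protein that can inhibit translation, with 41.2, 49.8 and 42.8 CPM in GSK-J1 libraries against 46.6, 50.8 and 59.3 CPM in sham (log2 -0.23, SE 0.19, unadjusted p = 0.26). In irradiated cells, GSK-J1 plus 4 Gy against 4 Gy again gave 0 calls in edgeR, 0 at an unadjusted p under 0.05 and 0 in DESeq2, with 0% of all genes called and a median of -0.01. IRF9 had the smallest p there, with 19.0, 8.66 and 11.0 CPM against 20.2, 12.1 and 14.6 CPM. Each of its combined libraries was below the 4 Gy library of the same number, and the replicate block within these 6 libraries called it alone (log2 -0.32, adjusted p = 0.0379), beside 0.515% of all genes. The block in all 12 Cal33 libraries called 0% of all genes in this comparison, so that IRF9 did not pass there. That fit also held the sham libraries, whose numbers do not pair with the others.

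The interaction of GSK-J1 and 4 Gy asks whether the inhibitor changed the response to irradiation. It gave 0 calls in Cal33 in edgeR, with 0 members at an unadjusted p under 0.05, 0 calls in DESeq2 and 0% of all genes called. The highest estimate was that of IFI6, at 0.43 with an SE of 0.92. Of the 47 estimates 42 were positive, but without 4 Gy replicate 2 only 12 were. At such an SE a change of that size was not detectable with 3 libraries a group.

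In SAS, 2 of the 47 members rose after 4 Gy relative to sham and 0 fell without the replicate block, and 14 rose and 5 fell with it. Without the block 7.08% of all genes were called, 3.63% higher and 3.45% lower, so the 2 calls were near the share of all genes. With the block 24.5% of all genes were called, 11.3% higher and 13.2% lower. The members' median log2 fold change was 0.20, from -0.86 (BST2) to 2.86 (CCL5), and 28 estimates were positive. In 9 members every 4 Gy library was above every sham library, against 13.1% of all genes. In 1 member, DTX3L, every 4 Gy library was below every sham library, against 13.6% of all genes. HERC6, a paralogue of the ISG15 ligase HERC5, had 7.47, 10.2 and 9.37 CPM against 6.04, 6.25 and 5.62 CPM, without overlap (log2 0.59, SE 0.14, adjusted p = 0.0222). CCL5 had 3.59, 2.26 and 0.905 CPM against 0.480, 0.192 and 0.264 CPM, also without overlap (log2 2.86, SE 0.66, adjusted p = 0.0233). It rested on few counts, with 30, 12 and 24 reads in the sham libraries.

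ISG15 had 17.0, 15.8 and 12.1 CPM after 4 Gy, against 9.83, 9.09 and 5.44 CPM in SAS sham libraries (log2 0.89, SE 0.28, adjusted p = 0.0777). OAS3 had 157, 157 and 141 CPM against 124, 118 and 78.7 CPM (log2 0.50, SE 0.17, adjusted p = 0.0913). Neither group pair overlapped, though neither gene was called. IRF1 had 175, 219.7 and 186 CPM against 384, 306 and 206 CPM (log2 -0.63, SE 0.22, adjusted p = 0.104). Its sham replicate 3 lay inside the irradiated range.

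The SAS replicate numbers pair in all groups, and the replicate block called 19 of 47 members, while 24.5% of all genes were then called (11.3% higher, 13.2% lower). Higher members included ISG15 (log2 0.91, adjusted p = 3.91e-05), OAS2 (log2 1.18), OASL (log2 0.81) and DDX60 (log2 0.51). The lower ones were 5 of 47, a smaller share than the 13.2% of all genes called lower. They were PARP14 (log2 -0.36, adjusted p = 0.000426), IFITM1 (log2 -0.60, adjusted p = 0.00583), IRF1 (log2 -0.59, adjusted p = 0.017), BST2 (log2 -0.66, adjusted p = 0.0407) and GBP1 (log2 -0.65, adjusted p = 0.0424). IRF1 and GBP1 are best known as targets of interferon gamma. Leaving out the 2 libraries with Cal33 transcripts, the block called 13 higher and 5 lower, beside 20.8% of all genes. Without the block, no member was called when 4 Gy replicate 2 or sham replicate 2 was left out, 1 when 4 Gy replicate 1, 4 Gy replicate 3 or sham replicate 1 was, and 4 when sham replicate 3 was. Of 21 further pathway genes 0 were called in edgeR, with 0 at an unadjusted p under 0.05 and 0 called in DESeq2. The endothelial markers VWF and CDH5 summed to 22.0 to 35.8 CPM after 4 Gy and to 11.0 to 99.0 CPM in sham, and the leukocyte markers to 6.59 to 11.8 CPM after 4 Gy and 10.6 to 24.3 CPM in sham. Of 6 squamous markers 3 were called in SAS: KRT6A (log2 2.15, adjusted p = 0.0037) and KRT14 (log2 0.79, adjusted p = 0.00366) were higher and KRT17 (log2 -0.47, adjusted p = 0.00679) was lower. KRT6A had 39.8, 26.3 and 40.4 CPM after 4 Gy, against 7.57, 9.86 and 6.64 CPM in sham, so it rose in both lines. The part of these markers in the result was not tested.

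With GSK-J1 present, 3 of 47 members rose after irradiation in SAS and 0 fell, beside 4.42% of all genes called (2.43% higher, 1.99% lower). DDX60 had 18.1, 17.4 and 12.2 CPM with both agents, against 10.1, 8.88 and 6.61 CPM with GSK-J1 alone (log2 0.90, SE 0.20, adjusted p = 0.0289). DDX60L, its paralogue, had 5.99, 7.78 and 5.73 CPM against 3.85, 4.64 and 3.60 CPM (log2 0.69, SE 0.15, adjusted p = 0.0236). HERC6 had 8.17, 8.61 and 8.13 CPM against 5.68, 5.88 and 4.56 CPM (log2 0.62, SE 0.13, adjusted p = 0.0233). None of the 3 genes overlapped between groups. The replicate block called 20 members, 18 higher and 2 lower, with 21.5% of all genes called (10.4% higher, 11% lower).

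Without the 2 libraries that hold Cal33 transcripts no member passed in this comparison (adjusted p = 0.136 for HERC6, 0.128 for DDX60 and 0.149 for DDX60L), nor did any without GSK-J1 plus 4 Gy replicate 2 or GSK-J1 replicate 3, and 1 did without either replicate 1. With the block and without those 2 libraries 15 were called, beside 10% of all genes, including DDX60 (log2 0.93, adjusted p = 0.000403), HERC6 (log2 0.68, adjusted p = 0.00787) and DDX60L (log2 0.70, adjusted p = 0.00544).

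**Figure D5:**
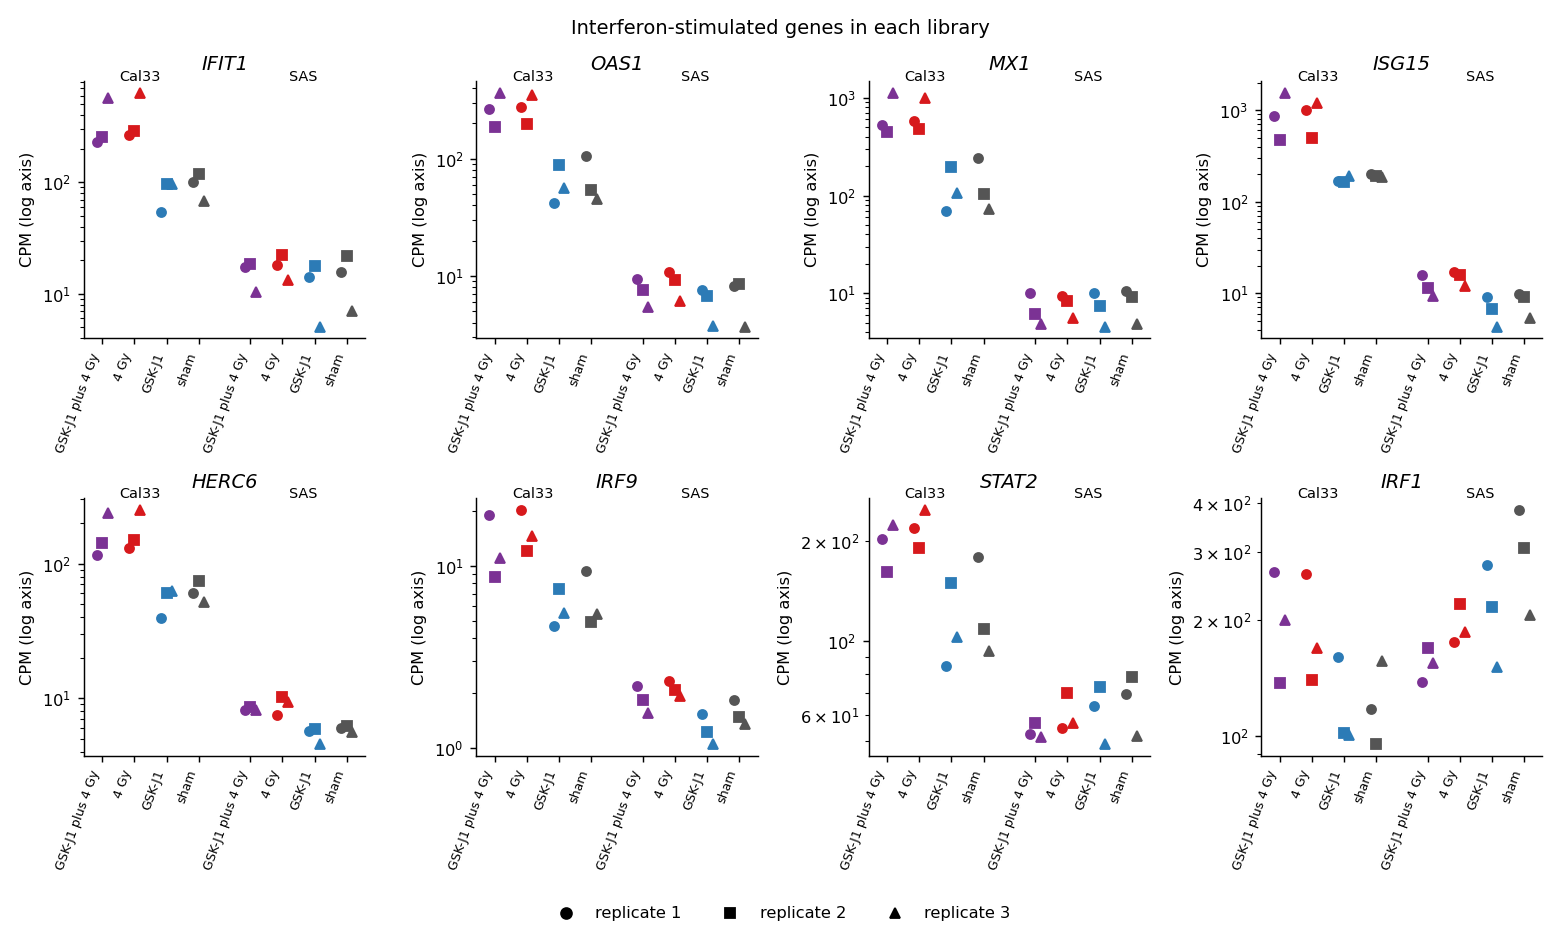
CPM on a log axis of 8 members (IFIT1, OAS1, MX1, ISG15, HERC6, IRF9, STAT2 and IRF1) in every library, by treatment, with Cal33 left and SAS right; symbols mark replicate numbers. In Cal33 every irradiated library lies above every unirradiated one for IFIT1, OAS1, MX1, ISG15 and HERC6, and in SAS replicate 3 is often the lowest.

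GSK-J1 alone gave 0 calls against sham in SAS in edgeR, with 4 members at an unadjusted p under 0.05, 0 in DESeq2 and 0% of all genes called. The member with the smallest p, DDX60L, had 3.85, 4.64 and 3.60 CPM with GSK-J1 against 4.90, 5.72 and 5.24 CPM in sham (log2 -0.40, unadjusted p = 0.0206). Every treated library was below every sham library there. IFI27 and XAF1 stood out only in the libraries with Cal33 transcripts: IFI27 had 2.49, 0.244 and 0.120 CPM with GSK-J1 against 0.208, 0.160 and 0.143 CPM in sham, and XAF1, a pro-apoptotic protein, had 0.562, 0 and 0.0267 CPM against 0.0640, 0.0160 and 0.0439 CPM. Between GSK-J1 plus 4 Gy and 4 Gy, 0 members were called in edgeR, 0 had an unadjusted p under 0.05 and 0 were called in DESeq2. Leaving out both libraries with Cal33 transcripts, 0 members were called in either comparison, with or without the block. Without the block 2 members then had an unadjusted p under 0.05 for GSK-J1 against sham and 0 for GSK-J1 plus 4 Gy against 4 Gy, and with it 16 and 1 did. The block within the 6 libraries compared called 17 for GSK-J1 (16 lower and IFI27 higher, beside 2.59% of all genes) and 22 for GSK-J1 plus 4 Gy against 4 Gy (20 lower, and IFI27 and XAF1 higher, beside 7.98%). The block in all 12 libraries called 0 members for GSK-J1 against sham, beside 0.0427% of all genes (0.0128% higher, 0.0299% lower), and 0 for GSK-J1 plus 4 Gy against 4 Gy, beside 0% of all genes, so that none of the 17 and 22 calls passed there. Unadjusted p was under 0.05 for 22 members and 7 members. The SAS interaction gave 0 calls in edgeR, 0 at an unadjusted p under 0.05 and 0 in DESeq2, and 0 calls after leaving out both libraries.

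The 2 lines differed in their sham level before any treatment. Of the 47 members 35 were higher in Cal33 sham than in SAS sham and 2 were lower, with 54.5% of all genes called (27.2% higher, 27.2% lower). ISG15 had 201, 190.3 and 186 CPM in Cal33 against 9.83, 9.09 and 5.44 CPM in SAS (23.8-fold, log2 4.57). IFIT1 had 101, 119 and 67.5 CPM against 15.6, 21.7 and 6.97 CPM (log2 2.70). MX1 had 241, 103 and 72.8 CPM against 10.5, 9.14 and 4.85 CPM (log2 4.09). All 3 were separated by line in every sham library, as were 28.5% of all genes with Cal33 higher. The widest gaps were those of XAF1 (log2 9.83), IFI27 (log2 9.11), RSAD2 (log2 7.67), OAS2 (log2 6.99) and CCL5 (log2 6.81). Their size is uncertain where SAS sham reads were few: 4, 1 and 4 for XAF1, 13, 10 and 13 for IFI27, 38, 10 and 9 for RSAD2, and 30, 12 and 24 for CCL5.

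The lower members in Cal33 sham were IRF1 (log2 -1.28, adjusted p = 0.000556), with 117, 95.6 and 157 CPM against 384, 306 and 206 CPM, and PARP12 (log2 -0.62, adjusted p = 0.00652), with 59.0, 43.3 and 44.4 CPM against 87.0, 77.3 and 61.8 CPM. Neither overlapped between the lines, which held for 29.1% of all genes with Cal33 lower. IFNL1, IFNL2 and IFNL3 had no read in any SAS sham library, so that the mean of the Cal33 sham libraries was at least 13.3-, 3.01- and 3.27-fold higher, set against a floor of 3 counts per library (at most 0.048 CPM). For IFNL2 the lowest Cal33 sham library, at 0.0433 CPM, was itself under that floor. IFNB1 went the other way on few reads, with 3, 1 and 0 in the Cal33 sham libraries against 9, 5 and 9 in SAS sham.

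The response to 4 Gy was compared between the lines in a fit of all 24 libraries. The Cal33 log2 fold change was larger than the SAS one for 46 of 47 members, and 10 differences were called, all in that direction, beside 0.427% of all genes. The exception in sign was CCL5 (difference -0.61, SE 0.86, adjusted p = 0.908). PLSCR1, a scramblase, had 227, 229 and 316 CPM after 4 Gy against 114, 96.8 and 90.0 CPM in sham in Cal33, and 66.3, 69.1 and 69.2 CPM against 71.7, 68.1 and 52.5 CPM in SAS (difference 1.27, SE 0.22, adjusted p = 0.0122). IFIT5 had 43.6, 45.5 and 55.5 CPM against 26.2, 24.9 and 22.5 CPM in Cal33, and 24.1, 26.2 and 25.0 CPM against 27.5, 27.2 and 25.2 CPM in SAS (difference 1.06, SE 0.19, adjusted p = 0.0153). Both genes were higher in every irradiated Cal33 library than in any sham library, and lay within the sham range, or nearly so, in SAS. The other called differences were those of CXCL10 (4.10), EPSTI1 (1.75), SP110 (1.68), IFI35 (1.67), PARP14 (1.30), PARP12 (1.24), UBE2L6 (1.09) and DTX3L (0.90). Without the 2 SAS libraries that hold Cal33 transcripts 6 differences were called, beside 0.247% of all genes. With the replicate block, which took in the Cal33 sham numbers that do not pair, 25 were, beside 2.57% of all genes. Without 1 library at a time the count lay between 1 (without SAS 4 Gy replicate 1 or Cal33 4 Gy replicate 3) and 14 (without SAS sham replicate 3 or Cal33 4 Gy replicate 2). It was 2 without SAS 4 Gy replicate 3, SAS sham replicate 1, SAS sham replicate 2, Cal33 4 Gy replicate 1 or Cal33 sham replicate 2, 3 without SAS 4 Gy replicate 2, and 4 without Cal33 sham replicate 3. The difference in the response to GSK-J1 gave 0 calls in edgeR, 0 at an unadjusted p under 0.05 and 0 in DESeq2, and 0 calls after leaving out both libraries.

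Members varied together between replicates of a group. In Cal33, 4 Gy replicate 3 was the highest of its group for 35 members and replicate 2 the lowest for 37, and with both agents replicate 3 was the highest for 38 and replicate 2 the lowest for 34. Sham replicate 1 was the highest for 29 and GSK-J1 replicate 2 for 31. In SAS, replicate 3 was the lowest for 38 members with both agents, 29 with 4 Gy, 44 with GSK-J1 and 42 in sham. The median ratio of the highest to the lowest library was 1.93, 1.69, 1.45 and 1.53 in Cal33 (GSK-J1 plus 4 Gy, 4 Gy, GSK-J1 and sham) and 1.48, 1.49, 1.83 and 1.81 in SAS. The members are therefore not independent of each other. Several are also neighbours in the genome (hs37d5): 25 of 47 lie within 100 kb of another member, among them the IFIT genes on chromosome 10, OAS1, OAS3 and OAS2 on chromosome 12, and MX2 (42733870 to 42781317) beside MX1 (42792231 to 42831141) on chromosome 21. CMPK2 overlaps RSAD2 and PARP9 overlaps DTX3L on opposite strands, and the counts used are those of the gene's strand.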

How the data were processed

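Total RNA libraries (TruSeq Stranded) were aligned by the authors, per the submitters' notes, to hs37d5 with STAR 2.5.3a, handled with SAMtools 1.6 and counted with featureCounts of Subread 1.5.1. The deposited strand-specific counts were used without change; deposited FPKM and TPM columns were not used. Depth was 54200036 to 96848227 counts per library. Counts were tested in R 4.3.3 with edgeR 4.0.16 (limma 3.58.1), per line and over all 24 libraries, with TMM scaling and a mean of at least 1 count. Alternatives were DESeq2 1.42.0 and its size factors, no filter, a mean of at least 10, the replicate block, leaving out each library, and leaving out the 2 SAS libraries with Cal33 transcripts. The block without these 2 was chosen after seeing the data. Code was tested on simulated data. The members and lists were chosen with earlier results of these data known. Named were called members, at most 10 per direction by size of change at a mean of at least 10 counts, or the 5 with the smallest p where fewer than 5 were called; IFIT1, ISG15, MX1, OAS1, IRF9, STAT2, IRF1 and CXCL10 anywhere; and called pathway genes. 1 gene of the pathway is not reported here. Members named for other reasons were chosen after their values were seen. Same-numbered libraries were taken to pair where every correlation of their deviations from the group means was over 0.1: all SAS groups (lowest 0.307), and in Cal33 all groups but sham (lowest 0.164, with sham -0.609).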

Additional observations from a re-analysis of the deposited data

Results flagged for a closer look

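The lines differed in their response to 4 Gy for 10 members by a test of the difference itself, the interaction of line and irradiation in edgeR. The Cal33 minus SAS differences in log2 fold change were 4.10 for CXCL10, 1.75 for EPSTI1, 1.68 for SP110, 1.67 for IFI35, 1.30 for PARP14, 1.27 for PLSCR1, 1.24 for PARP12, 1.09 for UBE2L6, 1.06 for IFIT5 and 0.90 for DTX3L. In SAS, CXCL10 was near the limit of counting, at 0.0868, 0.192 and 0.103 CPM after 4 Gy and 0.256, 0.240 and 0.0329 CPM in sham. Groups of 3 libraries were too small for a test for single outlying libraries.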

How the results depend on the processing

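The Cal33 counts for irradiation kept within 1.5 times under all settings except leaving out 1 library. For 4 Gy against sham in SAS the count of 2 became 5 with DESeq2, 5 with no filter, 19 with the replicate block, 15 with the block in the 6 libraries compared and 18 with the block after leaving out both libraries with Cal33 transcripts. The share of all genes called was 7.08% in the main fit. With the blocks, in that order, it was 24.5%, 16.6% and 20.8%. For GSK-J1 plus 4 Gy against GSK-J1 in SAS the count of 3 became 7 with DESeq2, 6 with no filter, 20 with the block, 28 with the block in 6 libraries, 0 without the 2 libraries and 15 with the block without them. The share of all genes called there was 4.42% in the main fit, 21.5% with the block and 20.2% with the block in 6 libraries. Without the 2 libraries it was 0.414%, and 10% with the block. The block in 6 libraries gave 17 for GSK-J1 against sham and 22 for GSK-J1 plus 4 Gy against 4 Gy in SAS, and 1 for GSK-J1 plus 4 Gy against 4 Gy in Cal33. The 10 differences between lines became 18 with DESeq2, 26 with no filter, 25 with the block and 6 without the 2 libraries.

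Leaving out 1 library gave 22 to 40 calls for 4 Gy against sham and 26 to 44 for GSK-J1 plus 4 Gy against GSK-J1 in Cal33, 0 to 4 and 0 to 2 in SAS for the same comparisons, 34 to 37 between sham lines and 1 to 14 for the difference between lines, with 0 to 0 elsewhere. In Cal33 the block gave 43 calls for 4 Gy against sham and 45 for GSK-J1 plus 4 Gy against GSK-J1. Both come from a fit that held the sham libraries, whose numbers did not pair. The shares of all genes called with it were 9.91% and 8.67%. No paired analysis was possible because numbers do not pair across lines for Cal33 sham against SAS sham.

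Of the values of named members, 492 kept their direction and side of the threshold, 35 passed it, 9 no longer did and 2 turned. These were IFI27 for GSK-J1 plus 4 Gy against 4 Gy in SAS (-0.14) and XAF1 in the line difference of GSK-J1 (1.25), both without the 2 libraries. With 1 library left out 532 kept, 1 passed, 127 no longer did and 12 turned, none of them called. The ranges were -0.14 to 2.98 for IFI27 (GSK-J1 plus 4 Gy against 4 Gy in SAS), -3.01 to 1.25 for XAF1 (line difference of GSK-J1) and -0.38 to 0.17 for DDX60 (GSK-J1 against sham in Cal33). For GSK-J1 plus 4 Gy against 4 Gy in Cal33 they were -0.40 to 0.03 for DDX60L, -0.07 to 0.23 for UBE2L6 and -0.23 to 0.04 for IFI44. In the Cal33 interaction they were -0.19 to 0.45 for CMPK2, -0.29 to 0.59 for ISG15 (also -0.03), -0.13 to 0.57 for OAS2 (also -0.07) and -0.14 to 0.48 for DDX60. Depth was ample for most members, while XAF1, IFI27, RSAD2, CXCL10, CXCL11, CCL5 and OAS2, among others, rested on few counts in SAS. In SAS sham CXCL11 had 22, 20 and 9 reads and OAS2 had 87, 59 and 32.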
